A study of Piaractus mesopotamicus with 9 samples.

Results

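The genes described here carry names of the Wnt signaling pathway in pacu (Piaractus mesopotamicus) myotubes, the fused cells formed when muscle precursors differentiate in culture. They were chosen by name, with earlier results of these data known. The names were those of Wnt ligands (wnt), Frizzled receptors (fzd), the co-receptors lrp5, lrp6, ror1 and ror2, and the inhibitor families sfrp and dkk. Also taken were the R-spondins (rspo) with lgr4, lgr5, lgr6, rnf43 and znrf3, and porcn, dvl, axin, apc, gsk3, ctnnb, tcf7 and lef1. Of 69932 annotated contigs with 19365 gene names, 123 contigs with 57 names matched. The members are the 71 of these contigs whose raw count averaged at least 10 over the 9 libraries, which carry 38 names, of 35575 contigs and 13162 names tested in all. Messenger RNA was sequenced from cells of juvenile fast-twitch muscle, with 3 libraries per group. AA myotubes spent 12 h without amino acids and then 24 h in DMEM with amino acids, IGF1 myotubes spent the same 12 h and then 24 h in amino acid-free medium with recombinant gilthead sea bream IGF1, and CTR myotubes stayed in amino acid-free medium for 36 h. The AA medium was therefore also another base medium than that of CTR and IGF1, and the treatment field of the labels gives 12 h for AA and IGF1 where their protocol and the methods give 24 h. The methods give 3 independent cell cultures, each pooled from several juvenile fish, and do not say whether same-numbered libraries share a culture.

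Wnt proteins are lipid-modified signals that bind Frizzled receptors together with the LRP5 and LRP6 co-receptors. Without them, a cytoplasmic complex of axin, APC and GSK3 marks beta-catenin for destruction. With them, Dishevelled inactivates that complex, beta-catenin enters the nucleus, and TCF/LEF proteins switch on target genes. Secreted Dickkopf and SFRP proteins restrain the signal, R-spondins strengthen it, and ROR receptors carry branches that do not use beta-catenin. In vertebrate muscle the pathway is known for roles in the specification of muscle precursors, their differentiation and regeneration.

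Total counts ran from 1366043 in AA replicate 3 to 53525876 in IGF1 replicate 3, and the members took 1026 to 1222 CPM (counts scaled to a common library total) in each library. In AA replicate 3, 12 of the 71 member contigs had 0 counts and 47 had fewer than 10, so weakly expressed members were poorly measured there. Markers of 7 cell states were examined as a check on the cultures. Of 17 tested myotube names, 13 were up-regulated in AA and 1 in IGF1. Their summed normalized counts spanned 6633 to 10321 in AA, 3814 to 4061 in IGF1 and 3802 to 4211 in CTR. Much of each sum came from actc1a, with means of 5340 in AA, 2387 in IGF1 and 3021 in CTR. On the adjusted p alone, 4 of these names were higher in IGF1 than in CTR and 0 were lower. The median log2 fold-change over the 17 names was 0.58 in IGF1. The 9 fibroblast names summed to 156646 to 168915 in AA, 236444 to 244558 in IGF1 and 155725 to 167524 in CTR. Most of each sum came from the collagen genes col1a1a, col1a1b and col1a2, at log2 fold-changes of 0.57, 0.56 and 0.60 in IGF1. The assembler grouped the contigs of col1a1a and col1a1b as variants of 1 gene, so they are not independent measurements. The same holds for the myotube names ttn.1 and ttn.2. On the adjusted p alone, 7 of the 9 names were higher in IGF1, while lum and twist2 were at −0.03 and 0.02. In AA, 2 names were higher and 2 lower on the adjusted p. The 4 names of dividing cells summed to 478 to 571 in AA, 266 to 334 in IGF1 and 164 to 217 in CTR. Much of each sum came from pcna, at a log2 fold-change of 0.73 in AA. The genes ccnb1, cdk1 and top2a were up-regulated in AA, at 3.86, 2.66 and 3.50, and were also called higher in AA than in IGF1. In IGF1 compared to CTR, top2a was up-regulated, at 1.63. The 2 adipocyte names summed to 87 to 212 in AA, 89 to 165 in IGF1 and 68 to 74 in CTR, and 1 of them, lpl, was up-regulated in AA. The 4 endothelial names summed to 204 to 411 in AA, 322 to 371 in IGF1 and 306 to 313 in CTR, with tek up-regulated in IGF1 compared to CTR and cdh5 higher in AA than in IGF1. The 1 Schwann and neural name tested had 0 to 26 in AA, 6 to 16 in IGF1 and 23 to 41 in CTR, without a call. Of 7 macrophage and blood symbols, csf1ra and spi1a had a mean below 10 and the other 5 were not found among the names. Because these are bulk libraries, fewer cells of a type and less RNA per cell cannot be told apart in any value below, and the part of these shifts in the results on Wnt genes was not tested.

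Each name stands by its contig with the highest mean count, the leading contig. Values per library are normalized counts, the raw count divided by the size factor of the library; contig lengths were not used, so levels are compared between groups and not between genes. A contig was called up- or down-regulated when edgeR's quasi-likelihood test gave an adjusted p of 0.05 or less and the change was 2-fold or more, up or down, and a name was called when any of its contigs was. In AA compared to CTR, 5 of the 38 names were called, which is 13.2% against 8.87% of all names tested. The receptor genes fzd8a and ror2 and the ligand gene wnt9a were up-regulated, 3 names or 7.89% against 4.87% of all names. The inhibitor gene dkk2 and the R-spondin gene rspo4 were down-regulated, 2 names or 5.26% against 4.07%. In IGF1 compared to CTR, the inhibitor gene sfrp5 was the 1 name called, up-regulated, which is 2.63% against 3.53% of all names. Between the treatments, dkk2 was the 1 name called, lower in AA than in IGF1, 2.63% against 6.00%. The shares of members called were thus within a few percentage points of those of all names. The first 2 comparisons use the same CTR libraries, so their values are not independent of each other.

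**Figure D1:**
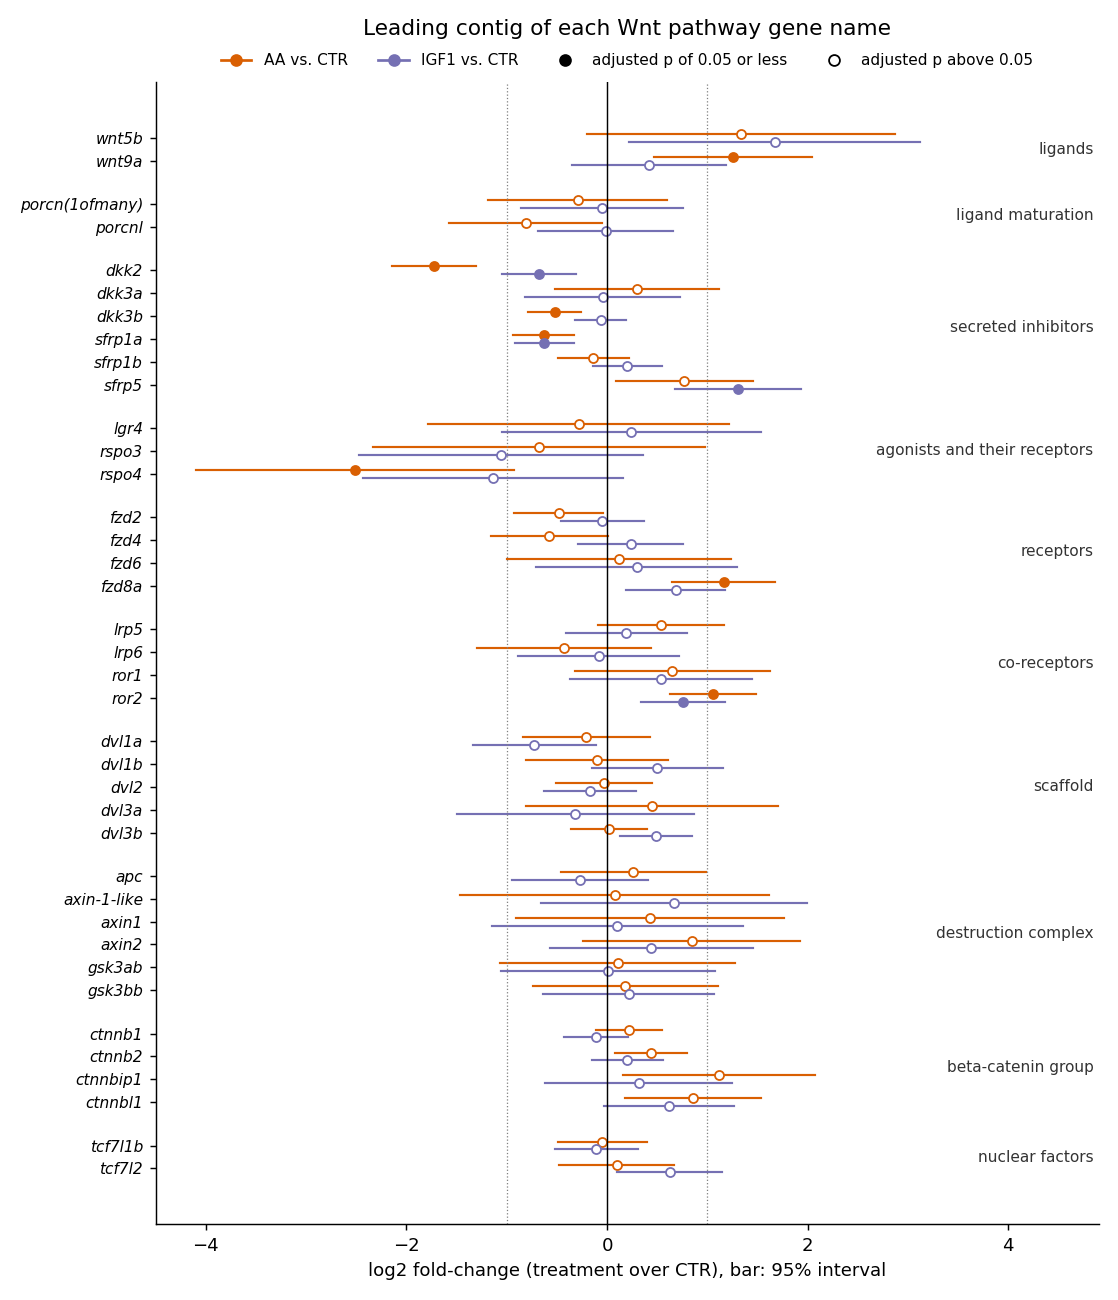
Log2 fold-changes of the leading contigs of the 38 Wnt pathway names, in AA and in IGF1 compared to CTR (x axis, treatment over CTR), grouped by role. Points are the edgeR estimates, bars their 95% intervals, filled points have an adjusted p of 0.05 or less, and dotted lines mark the 2-fold limits. The filled points lie among secreted proteins and receptors, with dkk2 at −1.73 in AA, and there is no filled point from the scaffold to the nuclear factors.

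Without the fold-change minimum, 7 names (18.4%, against 14.8% of all names) passed on the adjusted p alone in AA compared to CTR, the additional 2 being dkk3b and sfrp1a, both lower. In IGF1 compared to CTR there were 4 (10.5%, against 7.15%), with sfrp5 and ror2 higher and dkk2 and sfrp1a lower. In AA compared to IGF1 there were 2 (5.26%, against 10.3%), dkk2 and dkk3b, both lower in AA. The median log2 fold-change over the 38 leading contigs was 0.10 in AA and 0.20 in IGF1 compared to CTR, against 0.03 and 0.05 over all names. The AA and CTR libraries did not overlap in 14 of the 38 leading contigs (36.8%, against 32.5% of all names), and the IGF1 and CTR libraries in 13 (34.2%, against 30.2%). AA and IGF1 libraries did not overlap in 8 (21.1%, against 27.6%).

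Every called name encodes a secreted protein or a protein of the cell surface. The 21 names from ligands to co-receptors, which include the 2 names of porcupine, an enzyme of the endoplasmic reticulum, held the 5 calls in AA and the single calls in IGF1 and between the treatments. The 17 names from the scaffold to the nuclear factors held 0 calls in each of the 3 comparisons, by edgeR and by DESeq2. Of all names, 8.87% were called in AA, 3.53% in IGF1 and 6.00% between the treatments, so few calls would fall on any 17 names. At an unadjusted edgeR p under 0.05 there were 3 of these 17 names in each comparison, and their smallest adjusted p values were 0.0993 in AA, 0.0825 in IGF1 and 0.125 between the treatments. The share of all names at an unadjusted p under 0.05 is not given, so such counts, here and below, have no background beside them. Whether the 2 kinds of genes differ in how often they were called was not tested.

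In each comparison the lowest adjusted p among the members belonged to a secreted inhibitor, dkk2 or sfrp1a. In AA compared to CTR, the receptor genes ror2 and fzd8a came before the inhibitors other than dkk2. The gene dkk2 encodes a Dickkopf protein that binds LRP5 and LRP6. Its normalized count was 91.0, 110 and 141 in the AA libraries, 192, 274 and 217 in the IGF1 libraries, and 325, 366 and 378 in the CTR libraries. The groups were ordered without overlap, lowest in AA and highest in CTR. In AA the count was 0.302 times that of CTR, or a log2 change of −1.73 (standard error, SE, 0.20, adjusted p = 1.25e-05 by edgeR). In IGF1 it was 0.626 times that of CTR, or a log2 change of −0.68 (SE 0.18, adjusted p = 0.0262 by edgeR), which is short of the 2-fold minimum. The direct comparison of AA to IGF1 gave −1.05 (SE 0.20, adjusted p = 0.00239 by edgeR). The AA to CTR call held with each library left out, at −1.80 to −1.61. The AA to IGF1 difference dropped under the 2-fold minimum without AA replicate 1, at −0.93, and without IGF1 replicate 2, at −0.94. With scaling by library size only it was −0.87. The adjusted p of IGF1 compared to CTR was above 0.05 with counts summed per gene name (0.0832) and without CTR replicate 2 (0.0998), CTR replicate 3 (0.152), IGF1 replicate 1 (0.163) or IGF1 replicate 3 (0.132). Summing left the raw counts of dkk2 itself unchanged, as it had a single contig.

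The gene sfrp1a encodes a secreted Frizzled-related protein, which binds Wnt ligands outside the cell. It had 425, 479 and 429 normalized counts in AA, 431, 519 and 405 in IGF1, and 676, 704 and 685 in CTR. Both treated groups lay below all CTR libraries and overlapped with each other. On the log2 scale the change was −0.63 in AA (SE 0.14, adjusted p = 0.00646 by edgeR) and −0.62 in IGF1 (SE 0.14, adjusted p = 0.00895 by edgeR), both under the 2-fold minimum. The log2 difference of AA to IGF1 was −0.01, with a 95% interval of −0.31 to 0.30. The IGF1 value lost its adjusted p without IGF1 replicate 3 (0.0839). Its paralog sfrp1b did not pass the test. It ran from 1842 to 2315 in AA, 2221 to 3151 in IGF1 and 1828 to 2765 in CTR, and the 3 groups overlapped.

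The gene dkk3b belongs to a divergent branch of the Dickkopf family. It had 1086, 1122 and 998 normalized counts in AA, 1356, 1596 and 1444 in IGF1, and 1642, 1497 and 1440 in CTR. The AA libraries were below all others, and IGF1 and CTR overlapped. The fitted log2 change was −0.52 in AA compared to CTR (SE 0.12, adjusted p = 0.00901 by edgeR) and −0.46 in AA compared to IGF1 (SE 0.12, adjusted p = 0.026 by edgeR). In IGF1 compared to CTR it was −0.06, with a 95% interval of −0.32 to 0.19. The adjusted p of the AA to IGF1 difference was above 0.05 with only these groups fitted (0.0526), with scaling by library size only (0.206), and without AA replicate 1 (0.0554), AA replicate 3 (0.0679), IGF1 replicate 2 (0.0969) or IGF1 replicate 3 (0.0871). With scaling by library size only, which moved the median of all contigs by over 0.1, the AA to CTR value was −0.37 (adjusted p = 0.0571 by edgeR). Its paralog dkk3a did not pass the test in any comparison, with 27.5 to 52.1 in AA, 22.7 to 42.0 in IGF1 and 28.1 to 38.7 in CTR.

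The gene sfrp5, another secreted Frizzled-related protein, moved the other way from sfrp1a. It had 161, 103 and 169 normalized counts in AA, 301, 154 and 126 in IGF1, and 104, 74.5 and 61.2 in CTR. All IGF1 libraries exceeded all CTR libraries, with replicate 1 far above the other IGF1 libraries, and AA overlapped narrowly with CTR. The log2 fold-change was 1.30 in IGF1 (SE 0.30, adjusted p = 0.0115 by edgeR). In AA compared to CTR it was 0.77 (95% interval 0.09 to 1.45, adjusted p = 0.141 by edgeR), and in AA compared to IGF1 it was −0.53, with an interval of −1.20 to 0.14. The IGF1 call was lost without IGF1 replicate 1, where the log2 fold-change was 0.79 (adjusted p = 0.188 by edgeR), and also without CTR replicate 2 (adjusted p = 0.0601), without CTR replicate 3 (adjusted p = 0.102) and with counts summed per gene name (adjusted p = 0.0751). Summing left the raw counts of sfrp5 itself unchanged, as it had a single contig. Of the 9 fibroblast names, whose sum was also higher in IGF1 than in CTR, 7 passed on the adjusted p in IGF1, all higher. Among these 7, replicate 1 was the highest IGF1 library for dcn, pdgfra, postna and postnb. It was the lowest for col1a1a, col1a1b and col1a2. The receptor gene pdgfra had 484, 237 and 306 normalized counts in IGF1 and 236, 142 and 145 in CTR, with replicate 1 highest in both groups. For col1a1a, replicate 1 was the lowest in IGF1, with 64381, 67423 and 66192, against 45388, 42255 and 45497 in CTR. The part of fibroblast content in the sfrp5 value was not tested.

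The agonist genes had few counts. The R-spondin gene rspo4 had 8.47, 8.12 and 0 normalized counts in AA, 9.92, 42.7 and 16.2 in IGF1, and 9.64, 75.9 and 41.0 in CTR, from raw counts of 4, 12 and 0 in AA and 12, 104 and 116 in CTR. The AA libraries lay below the lowest CTR library by a small margin, with CTR replicate 1 far under the other CTR libraries. The fitted log2 fold-change was −2.52 in AA (SE 0.76, adjusted p = 0.0353 by edgeR) and −1.14 in IGF1 (SE 0.62, adjusted p = 0.368). The AA call was lost with CTR replicate 2, CTR replicate 3 or any AA library left out, at log2 fold-changes of −2.77 to −1.84 and adjusted p values of 0.0612 to 0.19, and with counts summed per gene name (adjusted p = 0.0605). The related rspo3 had 6.35, 5.41 and 28.1 in AA, 2.83, 2.85 and 10.8 in IGF1, and 5.62, 18.3 and 17.7 in CTR, and did not pass the test. Nor did lgr4, which encodes an R-spondin receptor, with 14.8, 6.76 and 0 in AA, 16.3, 8.55 and 10.4 in IGF1, and 16.9, 8.03 and 6.72 in CTR.

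Ligand genes also had few counts. Of the matching wnt names, 2 reached the mean count of 10, and the others are among the names listed further down as too low. The ligand gene wnt9a had 42.3, 65.6 and 42.2 normalized counts in AA, 27.6, 28.5 and 31.0 in IGF1, and 25.7, 19.0 and 21.2 in CTR. AA lay above both other groups, and all IGF1 libraries lay above all CTR libraries by a narrow margin. On the log2 scale the change was 1.26 in AA (SE 0.38, adjusted p = 0.034 by edgeR), 0.42 in IGF1 (95% interval −0.35 to 1.18) and 0.84 in AA compared to IGF1 (SE 0.38, adjusted p = 0.204). The AA call was lost without CTR replicate 1, 2 or 3, without AA replicate 2 or without IGF1 replicate 3, at log2 fold-changes of 0.92 to 1.38 and adjusted p values of 0.0548 to 0.244. It was also lost with the replicate number as a block (adjusted p = 0.0689), with no filter on low counts (0.0789) and with only the 2 groups fitted (0.0562).

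The other ligand gene, wnt5b, of a type known for branches without beta-catenin, had 4.23, 17.6 and 0 normalized counts in AA, 12.0, 22.8 and 9.79 in IGF1, and 4.02, 3.65 and 4.60 in CTR. All IGF1 libraries exceeded CTR, while AA was scattered on both sides of it. The fitted log2 change was 1.67 in IGF1 (SE 0.69, adjusted p = 0.201 by edgeR) and 1.34 in AA (SE 0.73, adjusted p = 0.272), so neither passed the test. Porcupine, the enzyme that attaches the lipid to Wnt ligands, was represented by porcnl and a second name, porcn(1ofmany). The leading contig of porcnl had 14.8, 38.5 and 35.2 in AA, 51.0, 59.8 and 49.0 in IGF1, and 52.2, 49.6 and 56.2 in CTR. AA was below both other groups, with a log2 fold-change of −0.81 to CTR (95% interval −1.58 to −0.05, adjusted p = 0.169 by edgeR) that did not pass the test. The name porcn(1ofmany) had 29.6, 29.8 and 14.1 in AA, 44.6, 17.1 and 29.2 in IGF1, and 36.1, 30.7 and 32.9 in CTR, without a call.

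**Figure D2:**
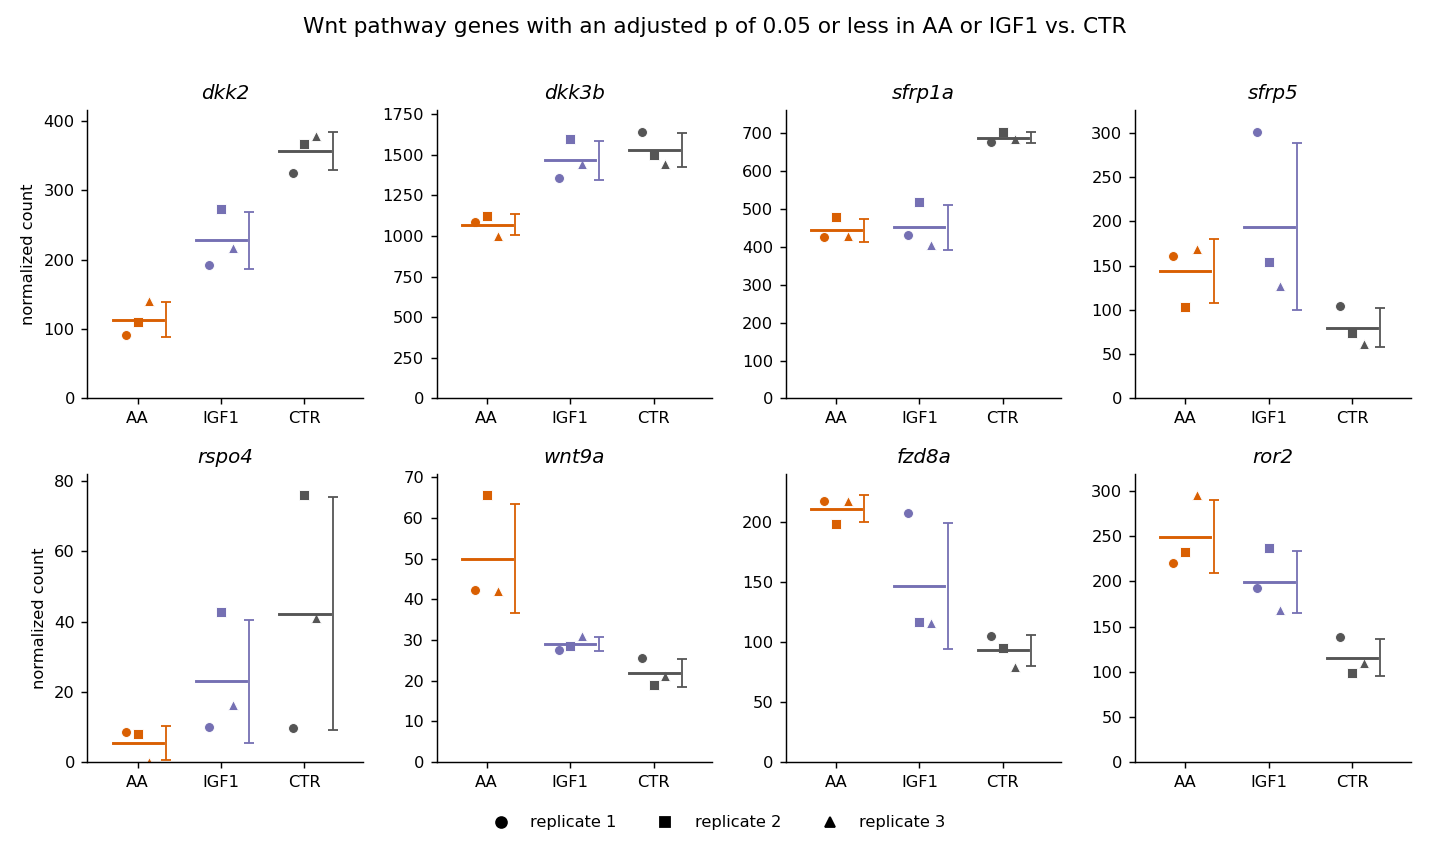
Normalized counts (y axis, from 0, own scale for each gene) of the 8 Wnt pathway names that passed on the adjusted p in AA or IGF1 compared to CTR. Points are single libraries, with the marker giving the replicate, horizontal lines are group means and bars are 1 SD around them (n = 3 libraries). For dkk2 the AA libraries sit between 91.0 and 141, below the IGF1 libraries at 192 to 274 and the CTR libraries at 325 to 378.

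Among the receptors, fzd8a encodes a Frizzled protein. It had 218, 199 and 218 normalized counts in AA, 208, 117 and 116 in IGF1, and 105, 95.6 and 79.2 in CTR. AA and IGF1 were each above all CTR libraries, and IGF1 replicate 1 stood with the AA libraries. The log2 fold-change was 1.16 in AA (SE 0.24, adjusted p = 0.00368 by edgeR), and the call held with each library left out, at 1.05 to 1.26. In IGF1 it was 0.69 (95% interval 0.19 to 1.18, adjusted p = 0.104, or 0.0433 under edgeR's newer quasi-likelihood method, an alternative chosen after seeing the data), and in AA compared to IGF1 it was 0.48 (interval −0.03 to 0.99, adjusted p = 0.272). The other Frizzled genes fzd2, fzd4 and fzd6 were not called. All AA libraries of fzd4 were below all others, with 40.2 to 56.8 in AA, 82.5 to 103 in IGF1 and 71.5 to 81.0 in CTR, at a log2 difference of −0.58 to CTR (adjusted p = 0.205 by edgeR) and −0.81 to IGF1 (adjusted p = 0.0876). For fzd2 the counts were 112 to 191 in AA, 188 to 260 in IGF1 and 220 to 288 in CTR, and AA lay under CTR at −0.48 (adjusted p = 0.162). For fzd6 they were 12.7 to 28.1 in AA, 11.4 to 29.8 in IGF1 and 10.2 to 23.3 in CTR, with all groups overlapping.

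The gene ror2 encodes a receptor tyrosine kinase that takes up Wnt ligands outside the beta-catenin branch. It had 220, 233 and 295 normalized counts in AA, 193, 237 and 169 in IGF1, and 139, 98.6 and 110 in CTR. Both treated groups were above all CTR libraries and overlapped with each other. On the log2 scale the change was 1.06 in AA (SE 0.21, adjusted p = 0.00208 by edgeR) and 0.76 in IGF1 (SE 0.20, adjusted p = 0.0269 by edgeR). The difference of AA to IGF1 was 0.30, with a 95% interval of −0.13 to 0.73. In AA the value lay so near the minimum of 1 that it dropped to 0.96 without CTR replicate 2 and 0.98 without AA replicate 3, with adjusted p values of 0.0163 and 0.00439. In IGF1 the adjusted p was above 0.05 with counts summed per gene name (0.06) and without CTR replicate 2 (0.14), CTR replicate 3 (0.145), IGF1 replicate 1 (0.0901) or IGF1 replicate 2 (0.0886). The related ror1 had 31.7, 58.2 and 56.2 in AA, 59.5, 22.8 and 44.0 in IGF1, and 52.2, 13.9 and 27.2 in CTR, and the groups overlapped without a call.

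Neither co-receptor of the beta-catenin branch was called. The gene lrp5 had 129, 158 and 141 normalized counts in AA, 118, 145 and 86.5 in IGF1, and 152, 62.1 and 83.1 in CTR. CTR replicate 1 lay within the AA range and the other CTR libraries below it. The log2 fold-change in AA was 0.54 (95% interval −0.09 to 1.17, adjusted p = 0.279 by edgeR), and it was 0.97 (adjusted p = 0.0387) without CTR replicate 1. The gene lrp6 had 46.6, 51.4 and 0 in AA, 56.7, 42.7 and 53.4 in IGF1, and 50.6, 49.6 and 64.7 in CTR. Apart from the 0 in the shallowest library its values were alike in range, with a log2 fold-change of −0.43 in AA (95% interval −1.30 to 0.44) and −0.08 in IGF1 (interval −0.88 to 0.72).

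Inside the cell, the Dishevelled scaffold was represented by 5 names and 13 contigs, none called. The leading contig of dvl2 had 237, 249 and 98.4 normalized counts in AA, 205, 180 and 187 in IGF1, and 231, 212 and 204 in CTR, with a log2 fold-change of −0.03 in AA (95% interval −0.51 to 0.45). For dvl3b the counts were 193, 177 and 211 in AA, 261, 299 and 233 in IGF1, and 197, 193 and 169 in CTR. IGF1 was above both other groups, at a log2 fold-change of 0.49 to CTR (95% interval 0.13 to 0.84, adjusted p = 0.108 by edgeR). For dvl1a they were 99.5, 71.0 and 56.2 in AA, 45.4, 57.0 and 59.9 in IGF1, and 62.7, 118 and 88.1 in CTR. Here IGF1 was below all CTR libraries, at −0.72 (95% interval −1.33 to −0.11, adjusted p = 0.184 by edgeR). The weak dvl3a had 10.6, 16.9 and 56.2 in AA, 12.0, 19.9 and 9.79 in IGF1, and 20.9, 13.9 and 12.7 in CTR. The fifth name, dvl1b, ran from 35.2 to 80.4 in AA, 62.7 to 145 in IGF1 and 61.0 to 70.1 in CTR.

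The destruction complex gave no call in 6 names and 11 contigs. The tumor suppressor gene apc had 46.6, 89.9 and 169 normalized counts in AA, 68.0, 39.9 and 68.3 in IGF1, and 69.9, 69.4 and 84.2 in CTR, so the AA libraries alone spanned more than the other groups together. The scaffold gene axin1 had 4.23, 21.6 and 14.1 in AA, 13.5, 5.70 and 12.6 in IGF1, and 8.84, 5.84 and 16.6 in CTR. A second axin name, axin-1-like, ran from 0 to 6.35 in AA, 5.70 to 11.3 in IGF1 and 4.38 to 6.01 in CTR. The gene axin2, itself a widely used target of beta-catenin, had 31.7, 26.4 and 14.1 in AA, 10.6, 17.1 and 28.2 in IGF1, and 8.84, 16.8 and 17.0 in CTR. Its groups overlapped, and the log2 fold-change of 0.84 in AA (95% interval −0.24 to 1.93) and 0.44 in IGF1 (interval −0.57 to 1.46) left room for changes in either direction. The kinase gene gsk3bb had 27.5, 29.1 and 42.2 in AA, 23.4, 45.6 and 30.6 in IGF1, and 15.3, 30.7 and 33.9 in CTR. Its relative gsk3ab had 23.3, 25.7 and 0 in AA, 15.6, 14.2 and 24.8 in IGF1, and 27.3, 10.2 and 20.2 in CTR. Intervals of the log2 fold-change in AA were wide for both kinases, with an SE of 0.44 for gsk3bb and an interval of −1.07 to 1.28 for gsk3ab.

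The genes of beta-catenin itself had narrower intervals. The gene ctnnb1 had 607, 577 and 492 normalized counts in AA, 532, 388 and 409 in IGF1, and 481, 469 and 491 in CTR. All AA libraries were above all CTR libraries, AA replicate 3 narrowly, and IGF1 lay on both sides of CTR. The fitted log2 change was 0.22 in AA (95% interval −0.11 to 0.55) and −0.11 in IGF1 (interval −0.43 to 0.21). The second beta-catenin gene, ctnnb2, had 715, 1094 and 1132 in AA, 748, 898 and 818 in IGF1, and 610, 648 and 867 in CTR. Its log2 fold-change in AA was 0.44 (95% interval 0.08 to 0.80, adjusted p = 0.11 by edgeR), and its adjusted p was 0.0339 with the replicate number as a block, 0.026 with scaling by library size only and 0.0197 without AA replicate 1, never at 2-fold. The name ctnnbip1, an inhibitor of the binding of beta-catenin to TCF, had 46.6, 29.1 and 28.1 in AA, 22.7, 22.8 and 16.2 in IGF1, and 20.1, 17.5 and 11.3 in CTR. AA was above both other groups, at a log2 fold-change of 1.12 to CTR (SE 0.46, adjusted p = 0.131 by edgeR) that did not pass the test. The name ctnnbl1 matched the rule by its letters but encodes a beta-catenin-like protein of the splicing machinery. It ran from 55.0 to 61.5 in AA, 40.6 to 57.0 in IGF1 and 27.3 to 35.7 in CTR, at a log2 fold-change of 0.86 in AA (adjusted p = 0.0993 by edgeR).

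Of the nuclear factors, tcf7l2 had 67.7, 71.0 and 84.4 normalized counts in AA, 129, 76.9 and 97.7 in IGF1, and 69.9, 62.8 and 69.0 in CTR. IGF1 lay above all CTR libraries, at a log2 fold-change of 0.62 (95% interval 0.10 to 1.15, adjusted p = 0.18 by edgeR), and AA was at 0.10 (interval −0.48 to 0.67). The adjusted p in IGF1 was 0.0487 under the newer quasi-likelihood method, still short of 2-fold. The gene tcf7l1b, which encodes a TCF protein known mostly as a repressor, had 137 to 169 in AA, 123 to 150 in IGF1 and 126 to 172 in CTR, and the groups overlapped.

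**Figure D3:**
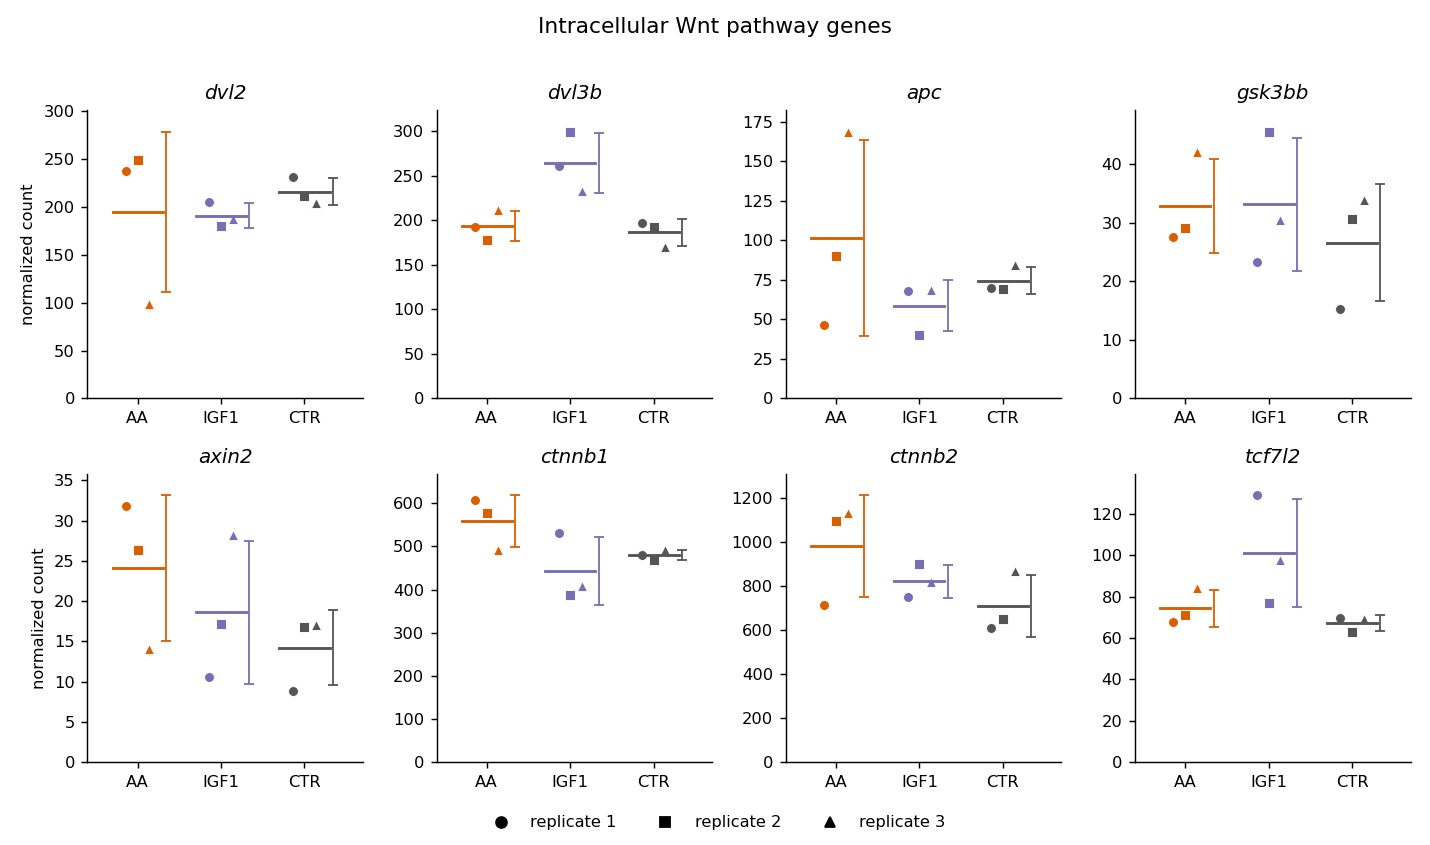
Normalized counts (y axis, from 0, own scale for each gene) of 8 intracellular Wnt pathway names in AA, IGF1 and CTR. Points are single libraries, lines group means and bars 1 SD (n = 3 libraries). None of the 8 was called, and for ctnnb1 the AA libraries at 492 to 607 stood just above the CTR libraries at 469 to 491.

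Several members share sequence. There were 18 names with more than 1 member contig, 51 contigs in all. In each name the contigs belonged to a single Trinity gene, the assembler's group of variant transcripts, so they are not independent measurements. Their log2 fold-changes in AA had the same sign in 16 of the 18 names, with a median range of 0.20 within a name and a largest range of 1.23, in gsk3ab. On 3 Trinity genes the assembler placed 2 names together, ctnnb1 with ctnnb2, gsk3ab with gsk3bb and dvl1a with dvl3a. Reads of these paralogs could have been split between them, and their separate values are uncertain to that extent.

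A further 19 names matched the rule but stayed below the mean count of 10 on every contig. They were the ligand genes wnt2bb, wnt4, wnt5a, wnt7aa, wnt7ba, wnt7bb, wnt11r and wnt16, the receptor genes fzd3b, fzd9a, fzd9b and fzd10, the inhibitor genes dkk1b and sfrp2, the agonist gene rspo2, and znrf3, gsk3aa, gsk3ba and lef1. Each had 4 to 116 raw counts summed over the 9 libraries and was not tested. The name dkk1b, a Dickkopf inhibitor, had 4, 6 and 0 raw counts in AA, 1, 2 and 27 in IGF1, and 36, 15 and 25 in CTR. The nuclear factor gene lef1 had 2, 9 and 0 in AA, 8, 8 and 23 in IGF1, and 1, 0 and 15 in CTR.

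Other genes of the pathway were taken from 5 lists, chosen with earlier results of these data known, so their shares are descriptive only. The lists have 104 symbols, for which 80 names passed the mean count. Of these, 11 were called in AA compared to CTR (13.8%, against 8.87% of all names), 7 up and 4 down. In IGF1 compared to CTR there were 6 (7.50%, against 3.53%), 1 up and 5 down. In AA compared to IGF1 there were 12 (15.0%, against 6.00%), 9 up and 3 down. The list of 18 cytoplasmic regulators gave 0 calls against CTR in either treatment by edgeR. On the adjusted p alone, 1 name was higher in AA and 1 in IGF1. At an unadjusted p under 0.05 there were 5 names in AA and 2 in IGF1. DESeq2 gave 0 calls in AA and 1 in IGF1. Between the treatments edgeR gave 1 call, csnk1e, a casein kinase gene, which was higher in AA.

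In the AA group, sost, whose protein sclerostin blocks LRP5 and LRP6, had 313, 241 and 225 normalized counts, against 197, 194 and 143 in IGF1 and 97.2, 113 and 93.4 in CTR. The 3 groups did not overlap, and the log2 fold-change was 1.37 in AA (SE 0.21, adjusted p = 0.000231 by edgeR) and 0.80 in IGF1 (SE 0.20, adjusted p = 0.0236 by edgeR). This inhibitor gene was thus higher in the same libraries in which dkk2 and sfrp1a were lower. Genes of the planar polarity branch were also called. The formin gene daam1b, whose product binds Dishevelled, had 52.9, 67.0 and 127 in AA, 24.8, 11.4 and 36.6 in IGF1, and 16.9, 11.7 and 22.6 in CTR, or a log2 change of 2.09 in AA (SE 0.45, adjusted p = 0.00422 by edgeR). The co-receptor gene ptk7a had 165, 154 and 225 in AA, 119, 82.6 and 122 in IGF1, and 77.9, 85.4 and 90.2 in CTR, or a log2 change of 1.02 in AA (SE 0.23, adjusted p = 0.00638 by edgeR). A second formin gene, daam2, had 284, 352 and 584 in AA, 245, 148 and 248 in IGF1, and 569, 767 and 638 in CTR. In AA it moved opposite to daam1b, with a log2 fold-change of −0.80 (SE 0.22, adjusted p = 0.0226 by edgeR). In IGF1 its value was −1.57 (SE 0.21, adjusted p = 0.000119 by edgeR), while daam1b was not called there. The name daam2 counted as called in AA through another, weaker contig, at −1.18 (SE 0.33, adjusted p = 0.0229 by edgeR). Both formin genes were higher in AA than in IGF1, by 1.45 for daam1b (adjusted p = 0.0477 by edgeR) and 0.77 for daam2 (adjusted p = 0.0394) on the log2 scale.

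Of 23 names on the list of common target genes, 4 were called in AA (17.4%, against 8.87% of all names), 2 up and 2 down. In IGF1 there were 3 (13.0%, against 3.53%). The 4 in AA include mycn, chosen after its values were seen, and nrarpa, a gene of the Notch pathway. The 3 in IGF1 were genes of CCN proteins, matrix-associated signaling proteins, and all were down-regulated. For ccn2b the counts were 465, 1282 and 897 in IGF1 and 1934, 2139 and 2042 in CTR, or a log2 change of −1.24 (SE 0.24, adjusted p = 0.00255 by edgeR). For ccn4b they were 131, 208 and 180 in IGF1 and 401, 443 and 374 in CTR, or a log2 change of −1.26 (SE 0.18, adjusted p = 0.000153 by edgeR). For ccn5 they were 125, 325 and 230 in IGF1 and 582, 541 and 573 in CTR, or a log2 change of −1.38 (SE 0.22, adjusted p = 0.000547 by edgeR). In AA the counts were 2688, 2579 and 1800 for ccn2b, 309, 348 and 316 for ccn4b, and 491, 404 and 492 for ccn5, and these 3 genes were not called compared to CTR. Compared to IGF1, ccn2b was higher in AA by 1.44 on the log2 scale and ccn5 by 1.06, with adjusted p values of 0.000608 and 0.00633 by edgeR. The summed fibroblast markers, given above, were higher in the same IGF1 libraries, and their part in these values was not tested. The gene hbp1, whose product represses Wnt target transcription, had 163, 157 and 167 in IGF1 and 488, 401 and 462 in CTR, or a log2 change of −1.46 (SE 0.19, adjusted p = 8.35e-05 by edgeR). It was not called in AA compared to CTR, where 4 of the 17 nuclear cofactors tested were lower on the adjusted p alone.

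**Figure D4:**
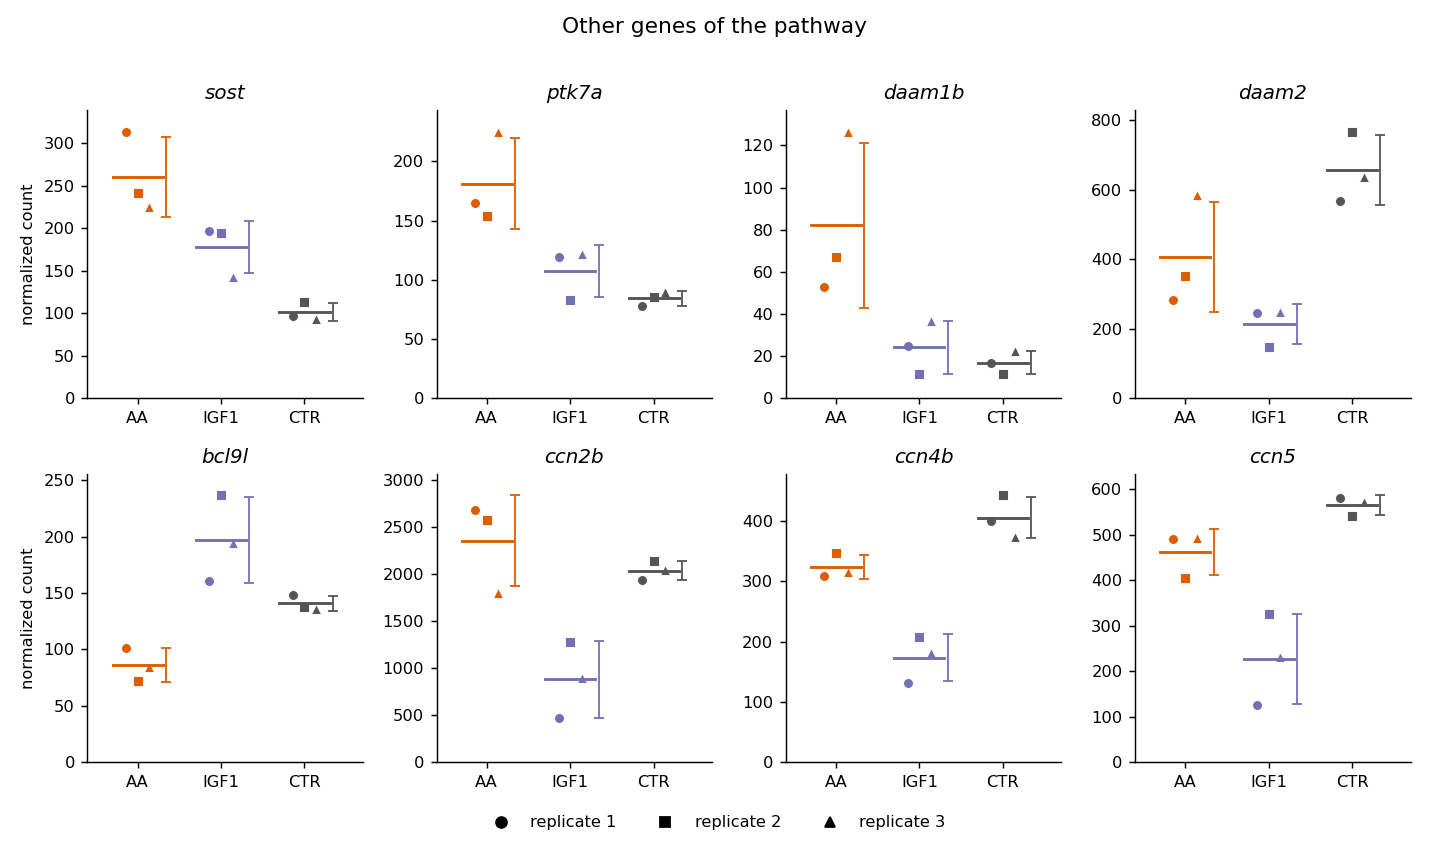
Normalized counts (y axis, from 0, own scale for each gene) of 8 other pathway genes in AA, IGF1 and CTR. Points are single libraries, lines group means and bars 1 SD (n = 3 libraries). The IGF1 libraries of ccn4b sit between 131 and 208, below the AA libraries at 309 to 348 and the CTR libraries at 374 to 443.

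The names of the target list called in AA compared to CTR were nrarpa and mycn, both up-regulated, and twist1a and fstb, both down-regulated. None of them was called in IGF1 compared to CTR. The gene nrarpa, of a small ankyrin repeat protein of the Notch pathway, had 93.1, 96.7 and 162 normalized counts in AA and 44.2, 46.7 and 37.5 in CTR, or a log2 change of 1.35 (SE 0.35, adjusted p = 0.0147 by edgeR). The gene mycn, of a transcription factor of growing cells, was chosen after its values were seen. It had 38.1, 41.3 and 105 in AA and 8.03, 21.9 and 17.7 in CTR, or a log2 change of 1.70 (SE 0.47, adjusted p = 0.0221 by edgeR). Both genes were higher in every AA library than in any CTR library. The paper also reported mycn as up-regulated in its AA transcriptome, from these same libraries. Its qPCR found no statistical difference in mycn between CTR, AA and IGF1 myotubes. Nor did it find one in muscle of fed, fasted and re-fed fish. The other 2 were twist1a, a transcription factor gene of mesenchymal cells, and fstb, a follistatin gene whose product binds activins and myostatin. The gene twist1a had 25.4, 35.2 and 42.2 normalized counts in AA and 92.4, 73.0 and 78.2 in CTR, or a log2 change of −1.30 (SE 0.33, adjusted p = 0.013 by edgeR). The gene fstb had 121, 77.1 and 84.4 in AA and 249, 155 and 193 in CTR, or a log2 change of −1.10 (SE 0.25, adjusted p = 0.00703 by edgeR). Both were lower in every AA library than in any CTR library. Between the treatments, nrarpa had 93.1, 96.7 and 162 in AA and 13.5, 34.2 and 31.0 in IGF1, a log2 difference of 2.10 (SE 0.37, adjusted p = 0.00108 by edgeR). The coactivator gene bcl9l, which links beta-catenin to the transcription machinery, had 102, 72.4 and 84.4 in AA and 160, 237 and 194 in IGF1, a difference of −1.21 (SE 0.23, adjusted p = 0.00217 by edgeR). The AP-1 gene jun had 102, 216 and 91.4 in AA and 436, 419 and 391 in IGF1, a difference of −1.45 (SE 0.26, adjusted p = 0.00114 by edgeR). The treated groups did not overlap in any of these 3 genes. Neither bcl9l nor jun was called in AA or IGF1 compared to CTR. Many genes of these lists are also under the control of other pathways, so their counts are no measure of beta-catenin activity.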

How the data were processed

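Messenger RNA of 9 libraries, 3 each of AA, IGF1 and CTR, was analysed. The authors assembled the trimmed reads with Trinity, named the contigs by BLASTx and aligned each library to them with Bowtie2. The submitters' processing notes also list FastQC 0.11.8, Trimmomatic, DESeq2 and GRCz11, and no genome coordinates were used here. The deposited table of raw counts holds whole reads per contig without normalization. The signal values deposited by the authors are these counts over DESeq2's size factors, and they return to the raw counts within 0.01. The tool that counted the reads is not given in the sources used here.

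A mean raw count of at least 10 was required of a contig. The 35575 contigs that had it were fitted in edgeR 4.0.16 (R 4.3.3) with TMM factors, using the quasi-likelihood F test in its older deviance form, all 9 libraries and the group as the single term. P-values were adjusted over all of them by Benjamini-Hochberg. The SE was taken as the log2 change divided by the root of F. The code was tested on simulated data drawn at these depths. The members, role groups, lists of other genes and markers were chosen with earlier results of these data known. Named with all values were the called members, the central components fixed by name, and the ligands; of the other pathway genes, at most 5 per comparison by the smallest adjusted p. The symbol jun with a paralog suffix also took in junba and junbb. As alternatives, DESeq2 1.42.0 replaced edgeR, median-of-ratios factors or plain library sizes replaced TMM, the count filter or the 2-fold minimum was dropped, a block for the replicate number was added, only the compared groups were fitted, contigs of a name were summed, and each library was left out. One more, the newer quasi-likelihood method of edgeR, was chosen after seeing the data. Total counts of 1366043 to 53525876 set the precision, and p-values cover the spread between these cultures only.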

Additional observations from a re-analysis of the deposited data

How the results depend on the processing

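No called value of a Wnt pathway member changed direction under the alternatives run. For single genes of the other lists, the markers and FZD7(1ofmany), values under the alternatives are not given. How far their calls hold is therefore not shown. The number of Wnt pathway names called in AA compared to CTR was 5, and it was 2 to 5 with 1 library left out, with dkk2 and fzd8a called each time. It was lowest, at 2, without CTR replicate 2, and 3 without CTR replicate 3, AA replicate 2 or AA replicate 3. In IGF1 compared to CTR the number was 1, and 0 to 1 with 1 library left out, being 0 without CTR replicate 2, CTR replicate 3 or IGF1 replicate 1 (7 names each at an unadjusted edgeR p under 0.05). It was 0 with counts summed per gene name (10 names at an unadjusted p under 0.05) and 4 without the fold-change minimum. In AA compared to IGF1 the number was 1, and 0 to 1 with 1 library left out, being 0 without AA replicate 1 or IGF1 replicate 2 (10 and 6 names at an unadjusted p under 0.05). It was 0 with scaling by library size only (9 names at an unadjusted p under 0.05) and 2 without the minimum. DESeq2 gave 5, 1 and 1 in the same 3 comparisons. Under scaling by library size only, the median change of all contigs in AA compared to CTR was 0.12 on the log2 scale, against −0.02 under TMM.

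With the replicate block, 4, 1 and 1 names were called, wnt9a being lost in AA. Residuals of same-numbered libraries, taken over all tested contigs, correlated at −0.05 to 0.11, with 2 of 9 pairs above 0.1. Counting noise at these depths lowers such correlations, so they do not settle whether these libraries share a culture. AA replicate 3, the library with the fewest counts, had 0 counts in 12 of the 71 contigs. The cause of the lost calls was not tested.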

Other observations

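Some contigs are named as Wnt pathway genes in capitals or by description and so were not matched by the rule; they were looked at after the other values had been seen. The name FZD7(1ofmany) is carried by contigs of 2 different Trinity genes, which had different values. On the contig with fewer reads, the normalized count was 69.8, 125 and 183 in AA, 83.6, 71.2 and 92.5 in IGF1, and 45.8, 54.0 and 50.9 in CTR. AA and IGF1 were above all CTR libraries there. The log2 fold-change was 1.22 in AA (standard error 0.30, adjusted p = 0.0114 by edgeR), which is a call by the rule used for the members. In IGF1 it was 0.74 (adjusted p = 0.156 by edgeR), without a call. On the other contig it was 74.1, 116 and 84.4 in AA, 124, 205 and 136 in IGF1, and 77.1, 140 and 123 in CTR, and the log2 fold-change in AA was −0.26 (95% interval −0.85 to 0.33). The contigs named AXIN2(1ofmany) had 0 to 42.2 normalized counts in AA, 5.70 to 16.3 in IGF1 and 7.30 to 20.9 in CTR, and none was called. The 42.2 came from 6 raw counts in AA replicate 3. In AA compared to CTR their log2 fold-changes were −0.82 (95% interval −2.35 to 0.71) and −0.83 (interval −2.33 to 0.66). Both were opposite in sign to the value of axin2, which was not called either. The 2 contigs named dickkopf-related protein 1-like, which share 1 Trinity gene, had 0 to 9.47 in AA, 12.8 to 22.0 in IGF1 and 4.60 to 19.0 in CTR. On both, all IGF1 libraries lay above all AA libraries, and none of the 3 comparisons was called.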
